A study of Mus musculus with 2 samples.

Results

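The enzymes that fold, modify and crosslink collagen were examined as a set of 10 genes: the chaperone gene Serpinh1, the prolyl 4-hydroxylase subunits P4ha1 and P4ha2, the lysyl hydroxylases Plod1, Plod2 and Plod3, the lysyl oxidases Lox, Loxl1 and Loxl2, and the procollagen protease gene Bmp1. They were taken by gene symbol from 22756 gene rows, of which 15676 had a count in at least 1 library, and all 10 symbols were present. The set was chosen by gene function, with the fed and fasted counts of these same libraries already known, so its values are a description and carry no test. Footprints, the short mRNA pieces that ribosomes shield from nuclease, had been sequenced from ileal tissue, the far end of the small bowel. The mice were C57BL/6, of wild type genotype and at postnatal day 21. The fed group and the group fasted for 48 h each had 1 library (n = 1), with no statement of how many animals went into it. Every difference below is between these 2 libraries and has no replicate check. A footprint count carries both the amount of an mRNA and how heavily it was translated, and no matched mRNA library was analysed here. In whole tissue, fewer cells of a type and less RNA per cell cannot be told apart.

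Collagen chains are made in the endoplasmic reticulum, where prolyl 4-hydroxylases add the hydroxyproline that keeps the triple helix stable at body temperature, and lysyl hydroxylases add the hydroxylysine used for sugar attachment and crosslinks. Serpinh1 encodes HSP47, a chaperone that binds the folded procollagen helix and travels with it towards the Golgi. Outside the cell, proteases such as BMP1 cut off the propeptides, and lysyl oxidases turn lysines into the reactive aldehydes that crosslink collagen and elastin. In the gut wall this work falls mainly to fibroblasts and smooth muscle cells beneath the epithelium.

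The fed library held 5558620 counts assigned to genes and the fasted library 5434252, which were 45.0% and 38.9% of the reads counted in the files. Levels are given as CPM, counts scaled to a common library total, after TMM scaling, which sets the typical gene's ratio near 1. Genes whose counts in the libraries summed to 30 or more were called measured. A measured gene was called higher or lower in the fasted library when its ratio was 1.5-fold or more and the 95% exact (Clopper-Pearson) interval of the ratio did not include 1. Intervals cover counting error only, and PCR copies of a molecule were not removed by any molecular identifier named in the labels. By this rule 17.3% of the 11333 measured genes were higher and 17.3% lower, 34.6% in all, and 49.9% of the calls were higher. With plain CPM, which uses the library totals alone and shifts every log2 ratio by -0.32, 22.1% of the calls were higher. Defining markers of the labelled tissue were present: Vil1 (villin of the brush border) had 22303 fed and 27446 fasted counts and Cdx2, an intestinal transcription factor picked after its values were seen, 704 and 767.

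All 10 enzymes were measured, with 37 to 1729 counts over both libraries. In the fasted library 4 were lower (Serpinh1, P4ha1, Plod2 and Plod3), against a background of 17.3% of genes, and 1 was higher (Lox), against the other 17.3%. The remaining 5 (P4ha2, Plod1, Loxl1, Loxl2 and Bmp1) were neither, with log2 ratios from -0.36 to 0.10. The median log2 ratio of the 10 was -0.24, beside 0.0028 over all measured genes. The set therefore did not differ as 1 block: members with the same enzymatic role stood on different sides of the threshold. The same 10 calls were made with plain CPM, although the values of Plod1 and Bmp1, just above 0 with TMM, were below 0 there. The background also differed there: of the 11333 measured genes 3536 were lower and 1004 higher with plain CPM. A call of lower was thus more common on that scale, for the members and for the other lists below.

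**Figure D1:**
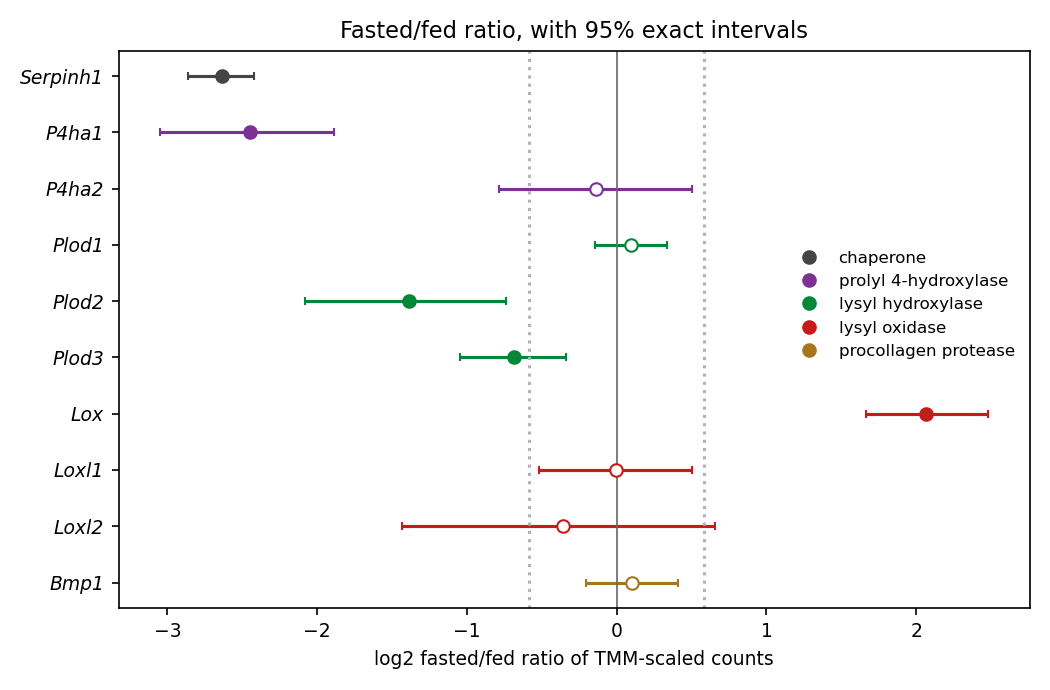
Log2 fasted/fed ratio of TMM-scaled footprint counts for each of the 10 genes (1 library per condition), with 95% exact intervals; colours mark the enzyme's role, filled points are genes called higher or lower, and dotted lines mark 1.5-fold. Serpinh1 (-2.64) and P4ha1 (-2.45) lie far to the left and Lox (2.06) far to the right.

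Serpinh1 had the lowest ratio of the set and, in the fed library, the most counts, whereas Plod1 and Lox had more in the fasted library. Its count was 1536 when fed and 193 when fasted. In scaled CPM the levels were 247.1 scaled CPM (95% exact Poisson interval 234.9 to 259.8) and 39.7 (34.3 to 45.7), 6.22-fold lower after the fast (log2 ratio -2.64, 95% interval -2.86 to -2.42). Serpinh1 (ENSMUSG00000070436.12, chromosome 7, 99345376 to 99353239, minus strand, mm10) ranked 70 from the bottom among 11333 measured genes. No exon of it overlaps another annotated gene, and no coding stretch of 28 bases is shared with another annotated transcript, so its count does not depend on how reads of copies were split. A level this far down was the exception in the set, since only P4ha1 came near it.

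Prolyl 4-hydroxylase is built from a catalytic alpha subunit, P4ha1 or P4ha2, and a beta subunit, P4hb, which is also a general protein disulfide isomerase. P4ha1 (ENSMUSG00000019916.14, chromosome 10, 59323296 to 59373304, plus strand), the main alpha subunit of most tissues, had 209 fed and 30 fasted counts. Its scaled CPM was 33.6 (29.2 to 38.5) and 6.17 (4.17 to 8.81), 5.45-fold lower in the fasted library (log2 ratio -2.45, -3.05 to -1.89), at rank 86 from the bottom. P4ha2 (ENSMUSG00000018906.14, chromosome 11, 54100095 to 54131665, plus strand) had 52 and 37 counts, or 8.36 (6.25 to 10.97) and 7.61 (5.36 to 10.5) scaled CPM. Its log2 ratio was -0.14, with an interval of -0.78 to 0.50 that includes no difference and also a 1.5-fold lower level. The alpha subunits thus differed from each other: P4ha1 had 402 counts for every 100 of P4ha2 in the fed library and 81.1 in the fasted library. That ratio, which needs no library scaling, was 4.96-fold lower in the fasted library (log2 -2.31, exact conditional interval -3.19 to -1.43), and per length the subunits could not be separated in the fasted library. P4hb, in contrast, had 8903 and 10739 counts and was higher in the fasted library (log2 ratio 0.63, 0.59 to 0.67), although with plain CPM it did not reach the threshold. Per kilobase of coding sequence its level was 35.8 times that of both alpha subunits together in the fed library and 169 times in the fasted one.

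Because Serpinh1 and P4ha1 stood lowest together, the 250 bases before their start sites are shown, with those of Plod1, which was neither higher nor lower, for comparison. They are taken from RefSeq on GRCm38.p6, and windows of 5 of the 10 genes were searched (Serpinh1, P4ha1, P4ha2, Plod1 and Plod3). The windows of the other members were not searched. Lox, the only member higher in the fasted library, is among those left out, so the matches below say nothing about it. Capitals mark the core letters of the hypoxia response element, ACGTG or GCGTG read on either strand (CACGT and CACGC on the opposite one).
Serpinh1, chr7:99353240-99353489, minus strand: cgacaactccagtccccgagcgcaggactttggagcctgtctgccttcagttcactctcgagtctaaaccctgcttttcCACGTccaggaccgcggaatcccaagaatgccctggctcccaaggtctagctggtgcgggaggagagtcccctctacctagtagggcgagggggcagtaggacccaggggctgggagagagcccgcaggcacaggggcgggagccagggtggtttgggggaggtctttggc
P4ha1, chr10:59323046-59323295, plus strand: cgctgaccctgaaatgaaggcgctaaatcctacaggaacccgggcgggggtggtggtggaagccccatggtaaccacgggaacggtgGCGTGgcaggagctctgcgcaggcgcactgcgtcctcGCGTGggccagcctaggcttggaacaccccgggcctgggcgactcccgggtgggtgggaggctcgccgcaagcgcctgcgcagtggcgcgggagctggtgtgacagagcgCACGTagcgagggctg
Plod1, chr4:147936777-147937026, minus strand: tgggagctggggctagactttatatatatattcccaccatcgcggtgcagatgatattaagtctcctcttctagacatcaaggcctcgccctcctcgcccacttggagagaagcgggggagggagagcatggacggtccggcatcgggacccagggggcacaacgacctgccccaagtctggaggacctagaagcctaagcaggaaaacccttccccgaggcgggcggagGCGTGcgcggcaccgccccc
Serpinh1 held 1 match, at -171 from the start site. P4ha1 held 3, at -163, -126 and -16. Plod1 held 1, at -20, so a match was present in lower genes and in a gene that was neither. P4ha2 held 3 matches and Plod3 held 4. All 5 windows thus had a match, as did 38.8% of 32536 windows of the same length before annotated start sites, and the 5 windows were 55.6% to 70% G and C. An inverted repeat of the heat shock element, GAANNTTC or TTCNNGAA, each its own reverse complement, was found in the P4ha2 window (at -52) and in none of the other 4, and in 12.9% of all windows. No matches overlapped within the printed windows, and a match is a description of letters only.

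Among the lysyl hydroxylases the 3 genes differed from one another. Plod1 (ENSMUSG00000019055.15, chromosome 4, 147909753 to 147936767, minus strand), the enzyme that acts on lysines within the helix, had 316 fed and 264 fasted counts. These were 50.8 (45.4 to 56.8) and 54.3 (48.0 to 61.3) scaled CPM, a log2 ratio of 0.096 (-0.15 to 0.34), and the 2 levels were not distinguishable at this depth. Plod2 (ENSMUSG00000032374.14, chromosome 9, 92542223 to 92608428, plus strand) hydroxylates lysines in the telopeptides at the ends of the chain, where hydroxylation leads to the more stable crosslinks. It had 87 and 26 counts, or 13.99 (11.2 to 17.3) and 5.35 (3.50 to 7.84) scaled CPM, 2.62-fold lower in the fasted library (log2 ratio -1.39, -2.08 to -0.74). Plod3 (ENSMUSG00000004846.10, chromosome 5, 136987019 to 136996648, plus strand), which also attaches sugars to hydroxylysine, had 206 and 100 counts. Its 33.1 (28.8 to 38.0) and 20.6 (16.7 to 25.0) scaled CPM were 1.61-fold apart (log2 ratio -0.69, -1.05 to -0.34), which passes the 1.5-fold threshold but not a 2-fold one. Taken against Plod1 within each library, Plod2 went from 27.5 to 9.85 counts per 100 (log2 -1.48, -2.22 to -0.79) and Plod3 from 65.2 to 37.9 (log2 -0.78, -1.22 to -0.35). Exons of Plod3 share 538 bases with Mir702 and with Znhit1 on the opposite strand (177 fed and 114 fasted counts), and 4.14% of its coding 28-base stretches occur in Znhit1. The strand setting of the counting was not stated in the labels, and a small part of the Plod3 count could belong to Znhit1. Plod2 shares 3.65% of such stretches with the opposite-strand gene model Gm38391, for which no count is given here. A small part of the Plod2 count could likewise belong to Gm38391.

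Lox was the only member higher in the fasted library, and its direction was opposite to that of the hydroxylases called. Lox (ENSMUSG00000024529.14, chromosome 18, 52516067 to 52529867, minus strand), the founding lysyl oxidase, which crosslinks collagen and elastin, had 67 fed and 219 fasted counts. Its scaled CPM was 10.8 (8.35 to 13.7) and 45.1 (39.3 to 51.5), 4.18-fold higher (log2 ratio 2.06, 1.66 to 2.48). That placed it 159 from the top of the 11333 measured genes. Its raw count was also the larger in the fasted library, whose total was the smaller. Loxl1 (ENSMUSG00000032334.10, chromosome 9, 58287738 to 58313186, minus strand), known for elastic fibre upkeep, had 77 and 60 counts, or 12.4 (9.77 to 15.5) and 12.3 (9.42 to 15.9) scaled CPM. Its log2 ratio of -0.0044 had an interval of -0.52 to 0.50. Within the family, Lox went from 87.0 counts per 100 of Loxl1 in the fed library to 365 in the fasted library (log2 2.07, 1.41 to 2.73). Per length, Lox and Loxl1 could not be separated in the fed library, while in the fasted library Lox stood far above.

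Loxl2 (ENSMUSG00000034205.16, chromosome 14, 69609068 to 69695834, plus strand), which acts on basement membrane collagen among other substrates, had the fewest counts of the set. It had 23 fed and 14 fasted counts, or 3.70 (2.35 to 5.55) and 2.88 (1.58 to 4.83) scaled CPM, and its log2 ratio of -0.36 had an interval of -1.43 to 0.66. Of its coding 28-base stretches 91.8% also occur in other annotated transcripts, mainly the gene models Gm16867 and Gm21451, and the files count reads that align to several places separately from genes. Gm16867 had 1 fed and 0 fasted counts. Most Loxl2 footprints could therefore not have been assigned to it, and its level is too low by an unknown amount. The other 9 members share at most 4.14% of such stretches with other genes.

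Bmp1 (ENSMUSG00000022098.10, chromosome 14, 70474558 to 70520234, minus strand) removes the carboxyl propeptide of fibrillar procollagens and also activates the LOX precursor. It had 193 fed and 162 fasted counts, 31.0 (26.8 to 35.7) and 33.3 (28.4 to 38.9) scaled CPM. The log2 ratio was 0.10 (-0.21 to 0.41), so a difference was not detectable at this depth, and the counting interval holds no 1.5-fold one in either direction. Its helper protein is encoded by Pcolce, which binds the propeptide and speeds its removal. Pcolce was 3.84-fold lower (368 and 75 counts, log2 ratio -1.94, -2.32 to -1.58). As a result Bmp1 went from 52.4 to 216 counts per 100 of Pcolce (log2 2.04, 1.56 to 2.53).

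Levels of different genes were compared as scaled CPM per kilobase of the longest annotated coding sequence. In the fed library Serpinh1 stood at 197.5, above every other member, and was 8.49 times the next one (interval 7.51 to 9.61). Plod1 (23.3) and P4ha1 (21.0) followed and could not be separated, and Plod3 (14.9) and Bmp1 (10.4) each lay below the gene before them by more than counting error. From Bmp1 down through Lox (8.74), Loxl1 (6.80), Plod2 (6.15) and P4ha2 (5.19) no gene could be separated from its neighbour. Loxl2 (1.59), undercounted as described, came last. In the fasted library the top of the order was Lox (36.6) and Serpinh1 (31.8), which could not be separated, then Plod1 (24.9) and Bmp1 (11.2), each below the gene before it by more than counting error. Plod3 (9.26), Loxl1 (6.78), P4ha2 (4.73), P4ha1 (3.85), Plod2 (2.35) and Loxl2 (1.24) followed, with no neighbours separable from Bmp1 downwards. Lox moved from place 6 to place 1 and P4ha1 from place 3 to place 8.

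**Figure D2:**
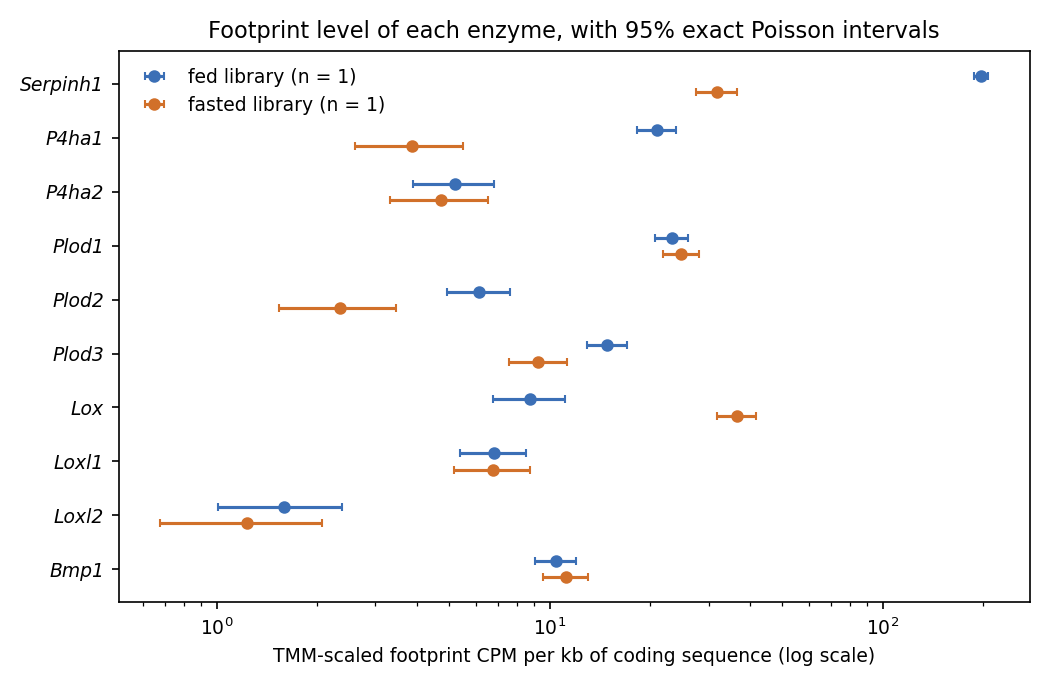
Footprint level of each gene in the fed and fasted library (1 library each), as TMM-scaled CPM per kilobase of coding sequence on a log axis, with 95% exact Poisson intervals. Serpinh1 stands alone at 197.5 in the fed library and is level with Lox in the fasted library, where the values are 31.8 and 36.6.

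Counted together, the 10 genes took 2766 counts (fed) and 1105 counts (fasted), 0.0498% and 0.0203% of all gene counts. Their summed scaled level was 1.96-fold lower in the fasted library (log2 ratio -0.97, -1.07 to -0.87). That sum was mostly Serpinh1. Without it the other 9 genes had 1230 and 912 counts, a log2 ratio of -0.076 (-0.20 to 0.049) that falls short of the threshold. Serpinh1 made up 55.5% of the set's counts in the fed library and 17.5% in the fasted library, while Lox went from 2.42% to 19.8% and Plod1 from 11.4% to 23.9%. By role, prolyl 4-hydroxylase alpha subunits were 3.04-fold lower in sum (261 and 67 counts), lysyl hydroxylases 1.22-fold lower (609 and 390), and lysyl oxidases 2.24-fold higher (167 and 293). Of the lysyl oxidases only Lox was called higher, and it held 67 and 219 of these counts. Of the alpha subunits only P4ha1 was called lower, with 209 and 30.

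**Figure D3:**
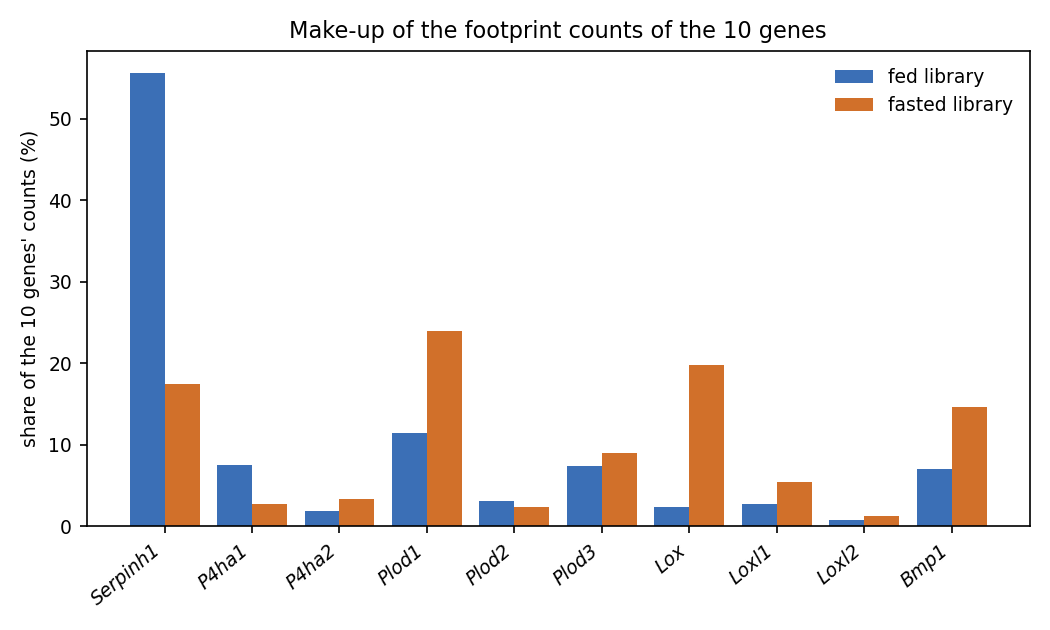
Share of the summed footprint counts of the 10 genes taken by each gene, in percent, for the fed (blue) and fasted (orange) library. Serpinh1 goes from 55.5% to 17.5%, and Plod1, Lox and Serpinh1 hold similar shares (23.9%, 19.8% and 17.5%) in the fasted library.

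The substrates of these enzymes were lower in the fasted library. Of 11 fibrillar collagen genes 6 were measured and all 6 were lower (median log2 ratio -2.11). Col3a1 had 9379 fed and 854 fasted counts (8.58-fold lower), Col1a1 8006 and 809 (7.74-fold lower) and Col1a2 5325 and 1197 (3.48-fold lower). These 3 genes held 91.3% of the fibrillar collagen counts in the fed library. Dividing each enzyme's count by the summed fibrillar collagen count of the same library gives a measure that no library scaling can move. Serpinh1 had 6.17 counts per 100 fibrillar collagen counts in the fed library and 5.87 in the fasted library, a ratio of 0.952 (exact conditional interval 0.811 to 1.11). P4ha1 had 0.840 and 0.913 per 100, a ratio of 1.09 (0.714 to 1.60). For these 2 genes a change relative to the summed fibrillar collagens was not detectable at this depth. The fibrillar sum was 5.92-fold lower in the fasted library. Basement membrane collagens (1.61-fold lower in sum) and type VI and fibril-associated collagens (1.91-fold lower) were lowered less than Serpinh1 and P4ha1. The enzymes were not divided by those collagens.

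The other 8 members were all higher per fibrillar collagen count after the fast, each with an interval above 1. The collagen sum itself had a log2 ratio of -2.57, so any gene lowered less than that rises on this measure. Serpinh1, at -2.64, ranked 70 from the bottom of 11333 measured genes, so nearly all measured genes rise on it. The rise is therefore not particular to these enzymes. Plod2 was 2.26-fold higher (1.40 to 3.55) and Plod3 3.68-fold (2.86 to 4.70). P4ha2, Plod1, Loxl1, Loxl2 and Bmp1 lay between 4.61-fold (Loxl2) and 6.36-fold (Bmp1). Lox went from 0.269 to 6.66 counts per 100 collagen counts, 24.8-fold higher (18.7 to 33.1). The Serpinh1 result depends on which collagens are summed, since the collagens were not lowered equally: without Col3a1 the ratio was 0.801 (0.682 to 0.937), without Col1a2 it was 1.18 (1.001 to 1.38), and against Col1a2, Col5a1, Col5a2 and Col5a3 alone it was 0.581 (0.493 to 0.682). P4ha1 against those 4 collagens gave 0.663 (0.435 to 0.980). These references were chosen after the values were seen.

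**Figure D4:**
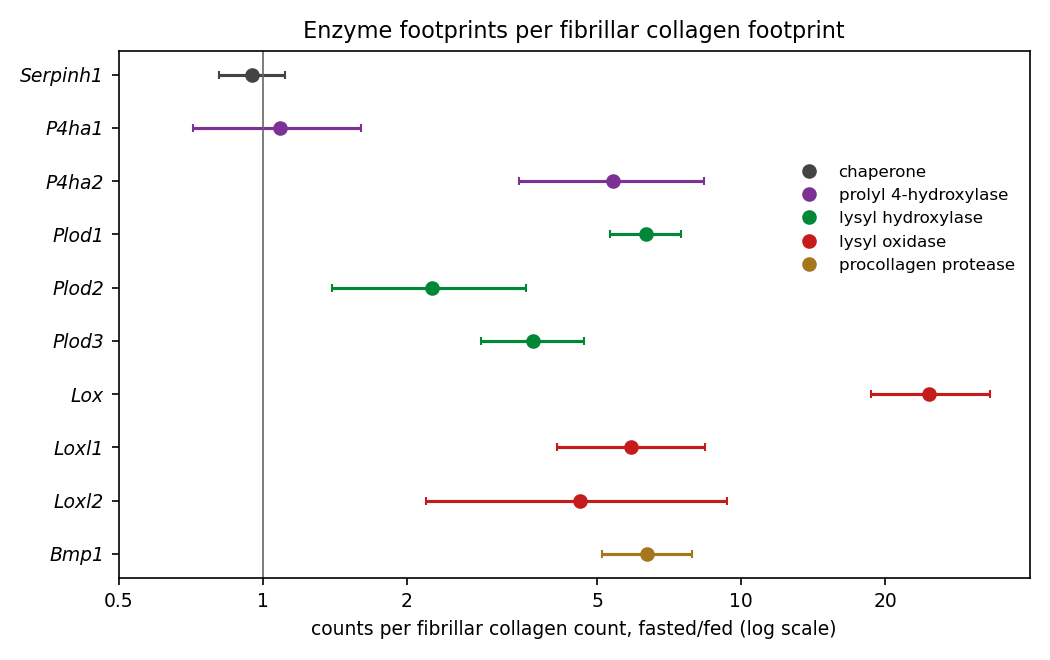
Counts of each enzyme per summed fibrillar collagen count, as the fasted/fed ratio on a log axis, with 95% exact conditional intervals; the vertical line marks no difference. Serpinh1 (0.952) and P4ha1 (1.09) lie on the line, and Lox lies at 24.8. The collagen sum was itself 5.92-fold lower in the fasted library, so genes lowered less lie to the right.

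Other genes of collagen processing mostly missed the threshold. Of 26 listed 25 were in the files and 20 were measured: 4 were lower, 2 were higher and 14 were neither (median log2 ratio -0.46), and with plain CPM 11 were lower and 1 higher. Besides Pcolce, the lower genes were Adamts2, which removes the amino propeptide of procollagen (69 and 19 counts, log2 ratio -1.51, -2.32 to -0.76), its relative Adamts3 (23 and 7 counts, -1.36, -2.83 to -0.093) and Crtap, a subunit of the prolyl 3-hydroxylase complex (84 and 27 counts, -1.28, -1.96 to -0.64). The catalytic partner of Crtap, P3h1, had 47 and 25 counts (-0.56, -1.32 to 0.17). Ppib, the cyclophilin of that complex, had a log2 ratio of -0.51 (-0.64 to -0.38), short of 1.5-fold. Fkbp10, a prolyl isomerase that also binds procollagen, had -0.54 (-1.07 to -0.021). The higher genes were P4hb and Pepd, the peptidase that recycles proline from breakdown products (4430 and 7404 counts, log2 ratio 1.096, 1.04 to 1.15). Both serve other proteins too and far exceed the collagen enzymes in counts. Of the remaining lysyl oxidases, Loxl3 had 46 and 26 counts (-0.47, -1.22 to 0.26), and Loxl4, with 25 and 3, did not reach the minimum of 30.

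**Figure D5:**
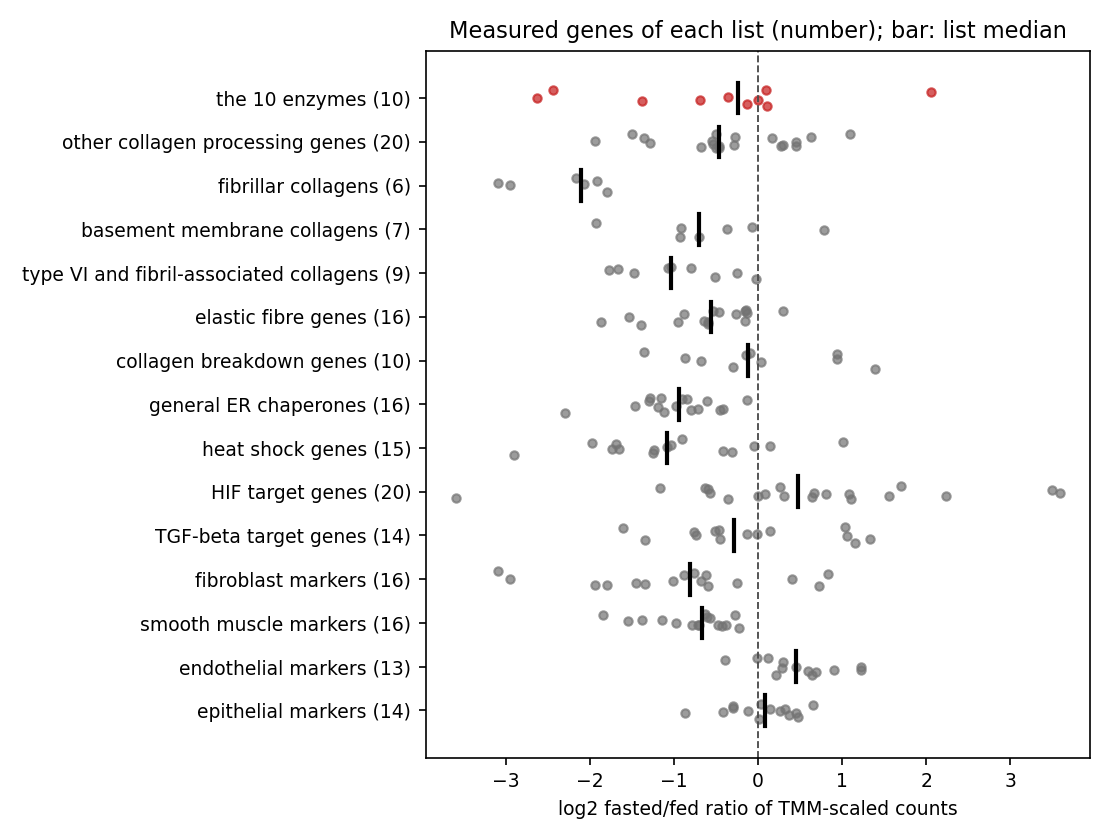
Log2 fasted/fed ratio of every measured gene of each list, with the number measured in brackets, black bars at list medians and a dashed line at the median of all measured genes. The 10 enzymes (red) spread from -2.64 to 2.06, while the 6 fibrillar collagens all lie at -1.80 or lower.

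Among the other collagen and elastic fibre genes listed, some were lower and 0 were higher by the threshold, with TMM and with plain CPM. Basement membrane collagens had 4 of 7 measured genes lower and 0 higher (median -0.70), and type VI and fibril-associated collagens 6 of 9 lower and 0 higher (median -1.03). Elastic fibre genes, a list that includes the lysyl oxidase substrate elastin, had 6 of 16 lower and 0 higher (median -0.56), and 11 lower with plain CPM. Elastin itself, Eln, had 288 fed and 116 fasted counts (log2 ratio -0.96, -1.28 to -0.64), so that Lox went from 23.3 to 189 counts per 100 of Eln (log2 3.02, 2.50 to 3.55). Genes of collagen breakdown, a list that also holds inhibitors of it, went both ways, 3 of 10 higher and 3 lower (median -0.12). Timp3, a metalloproteinase inhibitor held in the matrix (369 and 754 counts, log2 ratio 1.39, 1.20 to 1.57), and Mmp14, a membrane collagenase (364 and 546 counts, 0.94, 0.75 to 1.14), were higher. Mmp9, a gelatinase (-1.36, -1.70 to -1.04), and Mrc2, a receptor for collagen uptake (-0.87, -1.25 to -0.50), were lower.

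Markers of the cells that make collagen moved in the same direction as Serpinh1 and P4ha1, but not all of them. Of 18 fibroblast markers 16 were measured, 11 lower and 2 higher (median -0.81), and their summed level was 6452 scaled CPM in the fed library and 2844 in the fasted one. The higher ones were Dcn, the collagen-binding proteoglycan decorin (2696 and 3748 counts, log2 ratio 0.83, 0.76 to 0.90), and Pdgfra, a growth factor receptor of mesenchymal cells (1013 and 1304 counts, 0.72, 0.60 to 0.84), neither of which reached the threshold with plain CPM. Lum, another small proteoglycan, was lower (630 and 179 counts, -1.46, -1.71 to -1.22), so the list holds genes on both sides. The list also contains Col1a1, Col1a2, Col3a1 and Pcolce, so it is not separate from those described above. Col1a1, Col1a2 and Col3a1 had 8006, 5325 and 9379 of the list's 40109 fed counts. In the fasted library they had 809, 1197 and 854 of its 13817 counts. The lower summed level of the list is therefore in large part that of these collagens. Smooth muscle markers had 10 of 16 lower and 0 higher (median -0.67; 8092 and 4808 scaled CPM in sum), with Myh11 at -0.61 (-0.66 to -0.56). Endothelial markers had 6 of 13 higher and 0 lower (median 0.45; 389.8 and 580.6 scaled CPM in sum), with Pecam1 at 1.23 (0.99 to 1.47), but 2 higher with plain CPM. Epithelial markers had 1 of 14 higher and 1 lower (median 0.087), with Epcam at 0.028 (-0.0028 to 0.059), and with plain CPM 0 were higher and 4 lower. Enteric neuron and glia markers had 6 of 9 higher and 0 lower (median 0.60; 2 higher with plain CPM), and leukocyte markers 6 of 12 lower and 0 higher (median -0.52; 10 lower with plain CPM). The part of cell makeup in the enzymes' ratios was not tested.

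Scaled to the summed fibroblast markers in place of all genes, Serpinh1 (log2 ratio -1.46, -1.68 to -1.24) and P4ha1 (-1.26, -1.87 to -0.71) were still lower and Lox was still higher (3.25, 2.84 to 3.66). On that scale Plod2 (-0.21) and Plod3 (0.49) were neither, and P4ha2, Plod1, Loxl1 and Bmp1 were higher. Of all 11333 measured genes 8813 were higher and 172 lower on it, so a call of higher was the usual one. Serpinh1, P4ha1, Lox and Loxl2 thus had the same call on both scales, and the other 6 members did not. Much of this reference is Col1a1, Col1a2 and Col3a1, so it is partly a collagen scale. A fibroblast scale without these collagens was not computed.

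Genes of general protein folding in the endoplasmic reticulum, which serve all secreted proteins, were lower as well: 13 of 16 lower and 0 higher (median -0.94). Hspa5, the chaperone BiP, had 10588 and 4417 counts (log2 ratio -0.91, -0.96 to -0.86), and the lowest was Creld2 (272 and 43 counts, -2.31, -2.81 to -1.84). Serpinh1 was lower than Hspa5 by more than counting error, at 14.5 counts per 100 of Hspa5 in the fed library and 4.37 in the fasted one (log2 -1.73, -1.96 to -1.51). Serpinh1 is also a heat shock gene. A list of 16 other heat shock genes, added after the enzymes' values were seen, had 10 of 15 measured genes lower and 1 higher (median -1.09). Hsph1, a cytosolic chaperone, had 1000 and 104 counts (log2 ratio -2.91, -3.22 to -2.62), and Chordc1, a co-chaperone of HSP90, had 333 and 66 (-1.98, -2.38 to -1.59). The higher gene was Hspb1 (19 and 30 counts, 1.01, 0.14 to 1.93), which was neither with plain CPM. The remaining 4 measured genes were neither with TMM.

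P4ha1, P4ha2, Plod2 and Lox are known targets of the hypoxia-inducible factor HIF, and in these libraries they did not share a direction, as given above. Among 20 measured other HIF targets 10 were higher and 4 lower (median 0.48), and with plain CPM 7 were higher and 6 lower. Ndrg1 (575 and 5078 counts, log2 ratio 3.50, 3.37 to 3.62) and Ddit4, an inhibitor of mTORC1 (271 and 2550 counts, 3.59, 3.41 to 3.78), were the furthest up. Vegfa, the vascular growth factor, was higher (158 and 364 counts, 1.56, 1.29 to 1.84), while Slc2a1, a glucose transporter, was neither (-0.0033, -0.27 to 0.26). Egln3, a prolyl hydroxylase that acts on HIF and not on collagen, was lower (257 and 89 counts, -1.17, -1.54 to -0.82), as was Ankrd37 (31 and 2 counts, -3.60, -6.71 to -1.62). Several of these genes answer to other signals as well. Genes linked to TGF-beta, a growth factor that drives matrix production, had 4 of 14 higher and 4 lower (median -0.29; 4 and 7 with plain CPM), with Ctgf higher (88 and 173 counts, 1.33, 0.95 to 1.72) and Postn lower (1186 and 305 counts, -1.60, -1.79 to -1.42).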

How the data were processed

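Ribosome footprint libraries, 1 from fed and 1 from fasted mice, were analysed as deposited. The authors deposited whole-number read counts for each gene symbol, without normalisation. Per the submitters' processing notes, cutadapt, Bowtie 1.1.2, STAR, HTSeq and the build mm10 were used, with no role or order given. The annotation and strand setting were not given in the sources used here. NA was read as 0. Reads of no feature, ambiguous reads and reads aligned to several places (fed 13.4%, 0.209% and 41.4% of reads, fasted 21.0%, 0.196% and 39.9%) were left out of library sizes.

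Counts were scaled with TMM (edgeR 4.0.16, R 4.3.3). A single library stood for each group (1 each), so nothing was tested and no p-values are given. Each ratio has a 95% Clopper-Pearson interval on the split of its counts, ratios between genes have an exact conditional interval (scipy 1.17.1), and list medians use ratios with 0.5 counts added. The functions were tested on simulated data. GENCODE vM21 (GRCm38, the assembly of mm10) matched 21943 of 22756 rows and gave coordinates, coding lengths and 28-base stretches shared between transcripts. A sequence shared only with unannotated genome was not looked for.

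Members and lists were chosen with earlier results of these data known. Named genes are all members, up to 3 lowest and 2 highest called genes per list ranked by the interval bound nearest to 1, and a fixed set of well-known genes, and not every gene of the rule is printed. Adamts3, Lum, Cdx2, Col5a1 and Col5a3 fall outside the rule and were named after their values were seen. Alternatives were plain CPM, DESeq2 1.42.0 size factors, upper-quartile factors, TMM without dominant genes (the 20 most abundant, ribosomal protein and mitochondrial genes), scaling to fibroblast markers, no minimum or 200 counts, a 2-fold threshold, 99% intervals and 2 added counts.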

Additional observations from a re-analysis of the deposited data

How the results depend on the processing

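The counts of members called (4 lower, 1 higher) were the same gene by gene with plain CPM, median-ratio and upper-quartile factors, TMM without dominant genes, no minimum count, 99% intervals and 2 added counts. A 2-fold threshold left out Plod3, and a 200-count minimum left P4ha2, Plod2, Loxl1 and Loxl2 unmeasured. With plain CPM the members' median log2 ratio was -0.56 and their summed ratio -1.29, and 1004 of all genes were higher and 3536 lower. Scaled to fibroblast markers, 5 members were higher and 2 lower, the median was 0.95, the summed ratio changed sign to 0.21 and that of Plod3 to 0.49, and 8813 of all genes were higher and 172 lower, because this reference was itself 2.27-fold lower in the fasted library. All-gene counts were 1187 higher and 892 lower with a 200-count minimum, and 935 and 1035 at 2-fold, where fewer genes can pass. Without Serpinh1 the summed ratio was -0.076, and without Loxl2 the median was -0.13 (both chosen after seeing the data). No paired analysis was possible because each group has 1 library. For the same reason no library could be left out. Depth limits Loxl2, P4ha2 and Loxl1 most, which have the fewest counts of the members called neither.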
